A study of Homo sapiens with 15 samples.

Results

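Genes that copy DNA, and the E2F and cyclin E genes that switch many of them on, were followed in UKE1 cells given 2 drugs for 3 h. The set held 43 genes chosen by name from the 58735 genes of the count table, and all 43 were among the 16146 genes with enough counts to test. UKE1 is a human myeloid leukaemia line with an activating mutation in the kinase gene JAK2. Each of 5 groups had 3 RNA-seq libraries: cells given TNF-α and both MCL and ruxolitinib, cells given TNF-α and MCL, cells given TNF-α and ruxolitinib, cells given TNF-α alone, and untreated cells. TNF-α is an inflammatory cytokine that, per the series text, was given first to imitate inflamed tissue. MCL was read as micheliolide, a plant lactone that the series title names, and ruxolitinib inhibits JAK1 and JAK2. The drug groups were compared with TNF-α alone, since they had received it too. RNA was taken 3 h after treatment. The sources used here give neither the doses, nor how long TNF-α was present, nor whether replicates were grown separately, so the p-values measure the spread between these libraries of 1 cell line, which may be technical.

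Replication begins when the origin recognition complex, CDC6 and CDT1 load the ring of MCM subunits onto DNA, a step called licensing. CDC45 and the GINS proteins then turn the ring into a working helicase, and polymerases held on DNA by the clamp PCNA copy both strands with nucleotides from ribonucleotide reductase and related enzymes. The E2F factors, released from the RB protein by cyclin-dependent kinases such as the partners of cyclin D and cyclin E, activate most of these genes as cells enter S phase, so they often move together.

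Promoters are shown for the 5 genes with the largest falls with both drugs and for the regulators E2F1 and CCNE1, which rose, because E2F binding there is the textbook link between members of the set. Each runs from 250 bases before a RefSeq start to 50 bases after it, 5′ to 3′ on the strand of the gene, on build GRCh38.p14. These starts need not be the outer ends of the gene spans in the count table. UHRF1 has 3 RefSeq windows, of which 2 hold a match, and PCNA has 2, of which 1 does, and the first listed window of each gene is shown. Capitals mark a match to TTTCCCGC, TTTCGCGC, TTTGCCGC or TTTGGCGC on either strand, 4 spellings of the E2F site. The windows are chr19:4909251-4909550 on the plus strand for UHRF1, chr16:58392221-58392520 on the plus strand for GINS3, chr11:61792661-61792960 on the plus strand for FEN1, chr1:23531184-23531483 on the minus strand for E2F2, chr20:5126573-5126872 on the minus strand for PCNA, chr20:33686336-33686635 on the minus strand for E2F1, and chr19:29811741-29812040 on the plus strand for CCNE1.
UHRF1 promoter: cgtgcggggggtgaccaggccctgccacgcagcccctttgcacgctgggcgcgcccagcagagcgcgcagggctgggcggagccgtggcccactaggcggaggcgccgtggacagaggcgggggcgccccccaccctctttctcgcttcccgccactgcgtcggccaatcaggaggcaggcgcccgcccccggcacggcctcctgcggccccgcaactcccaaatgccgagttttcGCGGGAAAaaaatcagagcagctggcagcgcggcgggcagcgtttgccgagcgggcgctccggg
GINS3 promoter: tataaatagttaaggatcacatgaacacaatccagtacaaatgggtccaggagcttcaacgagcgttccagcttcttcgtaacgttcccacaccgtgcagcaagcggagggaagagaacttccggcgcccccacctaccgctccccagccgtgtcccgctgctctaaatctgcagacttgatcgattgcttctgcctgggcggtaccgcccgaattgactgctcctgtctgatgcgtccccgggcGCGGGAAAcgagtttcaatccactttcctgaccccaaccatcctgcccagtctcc
FEN1 promoter: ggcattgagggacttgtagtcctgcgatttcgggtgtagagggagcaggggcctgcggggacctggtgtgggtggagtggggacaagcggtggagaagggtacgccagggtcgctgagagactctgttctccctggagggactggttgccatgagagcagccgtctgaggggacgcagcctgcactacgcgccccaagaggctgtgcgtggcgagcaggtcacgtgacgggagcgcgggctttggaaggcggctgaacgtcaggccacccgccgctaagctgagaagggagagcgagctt
E2F2 promoter: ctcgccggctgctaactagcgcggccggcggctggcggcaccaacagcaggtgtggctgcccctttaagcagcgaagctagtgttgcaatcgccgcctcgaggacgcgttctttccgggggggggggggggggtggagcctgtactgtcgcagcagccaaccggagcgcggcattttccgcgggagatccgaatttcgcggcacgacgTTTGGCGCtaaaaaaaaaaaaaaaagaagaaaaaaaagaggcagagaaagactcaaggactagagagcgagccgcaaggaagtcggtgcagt
PCNA promoter: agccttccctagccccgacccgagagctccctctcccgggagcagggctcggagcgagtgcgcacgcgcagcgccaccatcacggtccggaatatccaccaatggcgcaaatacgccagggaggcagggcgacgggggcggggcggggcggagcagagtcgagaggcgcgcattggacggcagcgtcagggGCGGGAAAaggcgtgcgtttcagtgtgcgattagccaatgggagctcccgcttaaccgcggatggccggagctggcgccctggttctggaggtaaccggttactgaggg
E2F1 promoter: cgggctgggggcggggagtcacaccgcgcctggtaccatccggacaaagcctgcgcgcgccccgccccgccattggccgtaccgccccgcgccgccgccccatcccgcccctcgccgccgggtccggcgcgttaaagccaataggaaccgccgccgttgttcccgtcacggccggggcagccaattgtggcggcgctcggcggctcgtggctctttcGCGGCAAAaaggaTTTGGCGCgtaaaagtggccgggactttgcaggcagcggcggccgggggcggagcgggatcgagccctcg
CCNE1 promoter: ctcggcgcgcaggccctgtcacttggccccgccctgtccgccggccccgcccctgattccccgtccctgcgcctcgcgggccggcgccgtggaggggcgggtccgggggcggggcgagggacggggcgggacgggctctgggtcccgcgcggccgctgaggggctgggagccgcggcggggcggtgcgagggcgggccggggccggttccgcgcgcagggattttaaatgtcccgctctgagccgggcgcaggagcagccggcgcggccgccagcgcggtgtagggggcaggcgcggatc
The match began 14 bases before the start in UHRF1, 5 before it in GINS3, 42 before it in E2F2 and 59 before it in PCNA, while E2F1 had 2 matches, at 33 and 20 bases before its start. None of the 4 spellings was in the window of FEN1, which fell, or of CCNE1, which rose. RefSeq promoters were found for 37 of the 43 genes, and 20 of the 37 (54.1%) had a match in a window, against 1090 of 27305 genes in the whole promoter table (3.99%). Among the genes of the promoter table that the count table also names, 867 of 17393 (4.98%) had a match. The set was chosen by name as replication and E2F genes, so these shares are descriptions. Counted by window, 21 of 47 (44.7%) had a match, against 3.31% of 35116. The CCAAT box, spelled CCAAT and searched on both strands and separately from the E2F site, was in 22 of the 37 (59.5%). It was in 39.7% of all genes of the promoter table and in 41.5% of those that the count table also names. A match is a run of letters and was not tested for binding.

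Libraries held 15476399 to 18035604 counts, and the 43 genes took 0.681% to 0.745% of them. The lowest count of any of the 43 genes in a library was 211. Levels are given as CPM, the counts scaled to library size with TMM factors. Differences are log2 fold changes with their standard error from edgeR's quasi-likelihood test, with Benjamini-Hochberg adjustment over all 16146 genes, and passing means an adjusted p below 0.05. Per kilobase of exon in untreated cells, levels ran from 3.74 CPM per kb for the polymerase α subunit gene POLA2 to 283 for PCNA, followed by the MCM subunit genes MCM7 at 153, MCM3 at 119 and MCM4 at 108. In bulk RNA, fewer cells in S phase and less RNA of these genes per cell cannot be told apart.

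With both drugs, 22 of the 43 genes were lower than with TNF-α alone, 10 were higher and 11 did not pass. Among all genes tested, 29.3% were lower and 25.5% higher, so the share lower among the 43 genes (51.2%) stood above the background and the share higher (23.3%) near it. The falls were small: the median of the 43 genes was -0.11, beside -0.03 over all genes, their median absolute change was 0.18 against 0.32, and none of the 43 passed with a change of 2-fold or more. The 3 libraries of each group did not overlap for 32 of the 43 genes (74.4%), against 60.6% of all genes. The 43 genes had at least 211 counts in every library, while genes were kept for testing from a minimum count of 10. Small changes pass more readily at high counts. Here and in the other comparisons, shares of calls and of non-overlap thus compare sets of unlike depth. The summed level of the set was 6655 ± 52.6 CPM with both drugs, 7080 ± 56.1 with MCL, 7442 ± 140 with ruxolitinib, 7154 ± 61.3 with TNF-α alone and 7307 ± 64.3 in untreated cells (SD, n = 3 each). As a mean share of all counts, the set took 0.685% with both drugs, 0.707% with MCL and 0.738% with ruxolitinib. It took 0.698% with TNF-α alone and 0.73% in untreated cells. MCL thus lay above TNF-α alone by share and below it by summed level. With library totals in place of TMM factors, 15 of the 43 genes (34.9%) were lower and 14 (32.6%) higher, where 24.2% of all genes were lower and 31.5% higher. The calls that ended were those of CDC6, MCM3, MCM4, RFC3, POLE, LIG1 and TK1 (adjusted p = 0.15 to 0.75), of which CDC6, LIG1 and TK1 also ended with no filter or with DESeq2. With library totals, 56.6% rather than 46.5% of all genes that passed were higher.

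**Figure D1:**
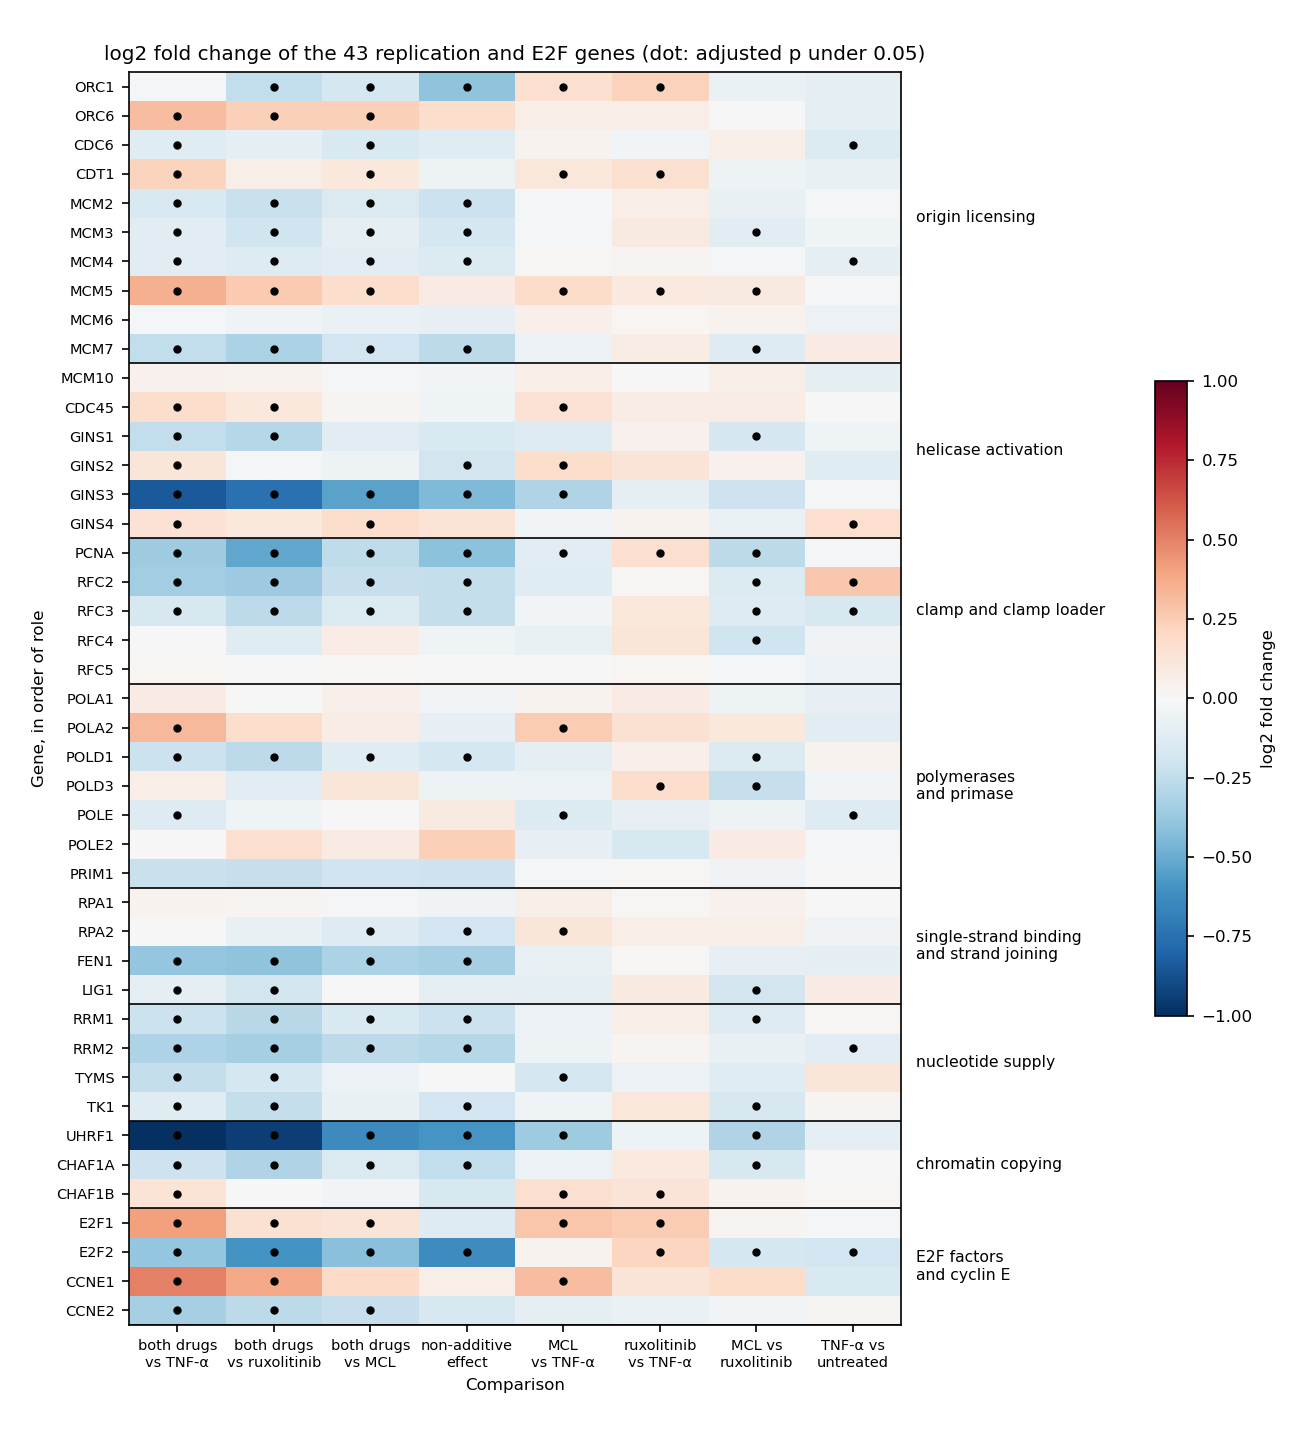
Colour gives the log2 fold change of each of the 43 genes (rows, by role) in each of the 8 contrasts (columns), and a dot marks an adjusted p under 0.05. UHRF1 and GINS3 are the deepest blue with both drugs, while CCNE1, E2F1 and MCM5 are red in that column.

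The largest fall was that of UHRF1, which recognises newly copied, half-methylated DNA and brings the maintenance methyltransferase to it. UHRF1 had 109, 107 and 115 CPM with both drugs, 168, 164 and 185 with MCL, 219, 209 and 207 with ruxolitinib, 224, 219.6 and 217 with TNF-α alone, and 227, 248 and 230.0 in untreated cells. The libraries with both drugs were the lowest and those with MCL came next. Every untreated library was above every library with TNF-α alone or with ruxolitinib. With TMM factors over all 15 libraries, UHRF1 did not pass for TNF-α against untreated cells. It passed as lower there with DESeq2 size factors, library totals, no filter, DESeq2 or the compared groups alone (adjusted p = 0.00902 to 0.0484). UHRF1 fell by 0.99 ± 0.04 (SE, adjusted p = 3.14e-30) with both drugs against TNF-α alone. CAF-1, the chaperone that places histones on new DNA, split: its large subunit gene CHAF1A fell by 0.20 ± 0.04 (adjusted p = 9.8e-06), and CHAF1B rose by 0.13 ± 0.04 (adjusted p = 0.00921), a call that ended without TNF-α replicate 2 (adjusted p = 0.054).

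Within helicase activation, the 4 GINS genes, whose proteins form 1 complex, did not move as one. GINS3 had 12.2, 14.4 and 12.8 CPM with both drugs, 18.7, 20 and 18.6 with MCL, 20.6, 23.4 and 22.2 with ruxolitinib, 24.3, 22.6 and 23.7 with TNF-α alone, and 25.7, 21.8 and 24.3 in untreated cells. Every library with both drugs was below every other library, and GINS3 fell by 0.84 ± 0.09 (adjusted p = 1.9e-12). GINS1 fell by 0.24 ± 0.05 (adjusted p = 0.000104). GINS2 was 0.12 and GINS4 0.14 higher, and both calls rested on single libraries. For GINS2 the adjusted p was 0.0911 and 0.0959 when TNF-α replicates 1 or 3 were left out and 0.185 without replicate 3 of both drugs. For GINS4 it was 0.189 when TNF-α replicate 3 was left out and 0.113 and 0.0732 without replicates 1 or 2 of both drugs. CDC45, which completes the helicase, had 103, 105 and 103 CPM with both drugs, 96.7, 106 and 102 with MCL, 95, 101 and 93.1 with ruxolitinib, 92.6, 91.3 and 91.2 with TNF-α alone, and 89.5, 96.1 and 88.4 in untreated cells, and rose by 0.18 ± 0.04 (adjusted p = 0.000519). MCM10, which helps to start the helicase, was at 0.04 (adjusted p = 0.4).

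Among the 10 licensing genes, 5 fell, 3 rose and 2 did not pass with both drugs. Over all genes 29.3% were lower and 25.5% higher, so the share higher was near the background. The MCM ring itself was divided. MCM5 had 514, 527 and 516 CPM with both drugs, 451, 466 and 461 with MCL, 427, 453 and 416 with ruxolitinib, 412, 395 and 407 with TNF-α alone, and 407, 415 and 404 in untreated cells. Levels with both drugs were above all others, those with MCL above those with TNF-α alone, and MCM5 rose by 0.36 ± 0.03 (adjusted p = 1.1e-14). MCM2 had 309, 313 and 297 CPM with both drugs, 337, 338 and 341 with MCL, 357, 369 and 345 with ruxolitinib, 342, 331 and 348 with TNF-α alone, and 341, 343 and 346 in untreated cells, and fell by 0.15 ± 0.03 (adjusted p = 9.15e-05). MCM7 fell by 0.25 ± 0.03 (adjusted p = 1.4e-08). MCM3 and MCM4 fell by 0.11 each, calls that ended without replicate 1 of both drugs for MCM3 (adjusted p = 0.061) and without TNF-α replicate 3 for MCM4 (0.052), and MCM6 was at -0.02 (adjusted p = 0.645).

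The loading factors were also divided. The origin recognition gene ORC6 rose by 0.31 ± 0.05 (adjusted p = 1.52e-07), to 88.8 ± 2.85 CPM with both drugs, against 71.9 ± 3.46 with TNF-α alone (SD, n = 3 each). CDT1 rose by 0.22 ± 0.04 (adjusted p = 5.23e-06), and ORC1, the large origin recognition subunit, was at -0.02 (adjusted p = 0.808). CDC6 had 93.9, 93.3 and 98.7 CPM with both drugs, 104, 108 and 106 with MCL, 103, 99.2 and 103 with ruxolitinib, 108, 102 and 101 with TNF-α alone, and 112, 112 and 117 in untreated cells. CDC6 fell by 0.12 ± 0.04 (adjusted p = 0.0124), and the call ended without TNF-α replicate 1 (adjusted p = 0.11) or replicates 1 or 2 of both drugs (0.0606 and 0.0715).

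The clamp fell with part of its loader. PCNA had 315, 332 and 321 CPM with both drugs, 383, 404 and 368 with MCL, 459, 464 and 460.1 with ruxolitinib, 406, 402 and 434 with TNF-α alone, and 418, 421 and 410.5 in untreated cells. The libraries with both drugs were the lowest and those with ruxolitinib the highest, and PCNA fell by 0.36 ± 0.03 (adjusted p = 7.29e-14) against TNF-α alone. The loader subunit genes RFC2 and RFC3 fell by 0.35 ± 0.05 (adjusted p = 2.27e-08) and 0.16 ± 0.05 (adjusted p = 0.00438), and the RFC3 call ended without TNF-α replicate 2 (adjusted p = 0.052). RFC4 was at 0.00 (adjusted p = 0.996) and RFC5 at 0.02 (adjusted p = 0.814).

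Of the 7 polymerase and primase genes, 1 rose, 2 fell and 4 did not pass. Among all genes 25.5% were higher and 29.3% lower, so the share lower was near the background. POLA2 had 25.6, 24.9 and 24.1 CPM with both drugs, 22.5, 24.4 and 24 with MCL, 23, 20.5 and 22.3 with ruxolitinib, 20.4, 21.4 and 17.5 with TNF-α alone, and 22.3, 20.5 and 21.5 in untreated cells, and rose by 0.33 ± 0.08 (adjusted p = 0.000498). Its partner POLA1, the catalytic subunit of polymerase α, had 75.6, 81.3 and 90 CPM with both drugs, 79, 79.5 and 80.1 with MCL, 79.6, 77.8 and 89.1 with ruxolitinib, 77.8, 77.1 and 78.6 with TNF-α alone, and 81.3, 83 and 82.2 in untreated cells. The ranges with both drugs and with ruxolitinib overlapped those of every other group, while those with MCL, with TNF-α alone and in untreated cells did not overlap each other. POLA1 did not pass in any of the 8 contrasts. The catalytic subunit genes of polymerases δ and ε, POLD1 and POLE, fell by 0.21 ± 0.04 (adjusted p = 1.78e-05) and 0.13 ± 0.04 (adjusted p = 0.00147). With library totals POLE was at -0.05 (adjusted p = 0.227). The primase gene PRIM1 had 20.8 CPM in replicate 3 of both drugs, against 31.9 and 30.9 in its other 2 libraries, and was at -0.22 (adjusted p = 0.208).

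All 4 genes of nucleotide supply fell with both drugs, where 29.3% of all genes were lower. RRM2, the regulated subunit of ribonucleotide reductase, had 129.5, 134 and 124 CPM with both drugs, 158, 158 and 149 with MCL, 161, 164 and 164 with ruxolitinib, 154, 162 and 165 with TNF-α alone, and 168, 169 and 181 in untreated cells. RRM2 fell by 0.31 ± 0.04 (adjusted p = 8.88e-10) and its partner RRM1 by 0.21 ± 0.04 (adjusted p = 5.54e-07). The thymidylate synthase gene TYMS fell by 0.24 ± 0.05 (adjusted p = 0.00046). The thymidine kinase gene TK1 fell by 0.12 ± 0.05 (adjusted p = 0.0257), but not without TNF-α replicates 1 or 3 or replicates 1 or 2 of both drugs (adjusted p = 0.066 to 0.201).

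Of the genes that bind single strands or join fragments, FEN1, the nuclease that trims flaps between Okazaki fragments, fell most. FEN1 had 152, 151 and 161 CPM with both drugs, 193, 193 and 190.4 with MCL, 204, 210.3 and 197 with ruxolitinib, 201, 197 and 207 with TNF-α alone, and 209, 216 and 217 in untreated cells. No library with both drugs overlapped another group, and FEN1 fell by 0.39 ± 0.04 (adjusted p = 5.62e-14). The ligase gene LIG1 fell by 0.09 ± 0.04 (adjusted p = 0.0336), a call that ended when any 1 of the 6 libraries was left out (adjusted p = 0.052 to 0.136). The single-strand binding genes RPA1 and RPA2 were at 0.04 (adjusted p = 0.397) and -0.01 (adjusted p = 0.914).

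The regulators moved in opposite pairs with both drugs. E2F1 had 98.6, 98.5 and 95.7 CPM with both drugs, 91.4, 87.5 and 88.5 with MCL, 86.5, 89.5 and 87.1 with ruxolitinib, 70.1, 73.2 and 77 with TNF-α alone, and 73.4, 74.8 and 74.7 in untreated cells. E2F2 had 35.8, 37.2 and 38.5 CPM with both drugs, 49.9, 49 and 50.1 with MCL, 56.7, 55.8 and 56.1 with ruxolitinib, 49.4, 44.9 and 51.4 with TNF-α alone, and 57.4, 53.7 and 54.9 in untreated cells. The E2F1 libraries with both drugs were thus the highest and the E2F2 libraries the lowest: E2F1 rose by 0.41 ± 0.05 (adjusted p = 7.38e-12) and E2F2 fell by 0.39 ± 0.06 (adjusted p = 8.17e-08). CCNE1 had 19.8, 18.4 and 19.2 CPM with both drugs, 17.4, 17.6 and 15.1 with MCL, 13.4, 15.9 and 15 with ruxolitinib, 13.9, 13.4 and 13.2 with TNF-α alone, and 14, 15.9 and 15.1 in untreated cells. CCNE1, which encodes cyclin E1, rose by 0.50 ± 0.10 (adjusted p = 7.7e-06), and CCNE2, which encodes cyclin E2, fell by 0.33 ± 0.07 (adjusted p = 8.45e-05).

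**Figure D2:**
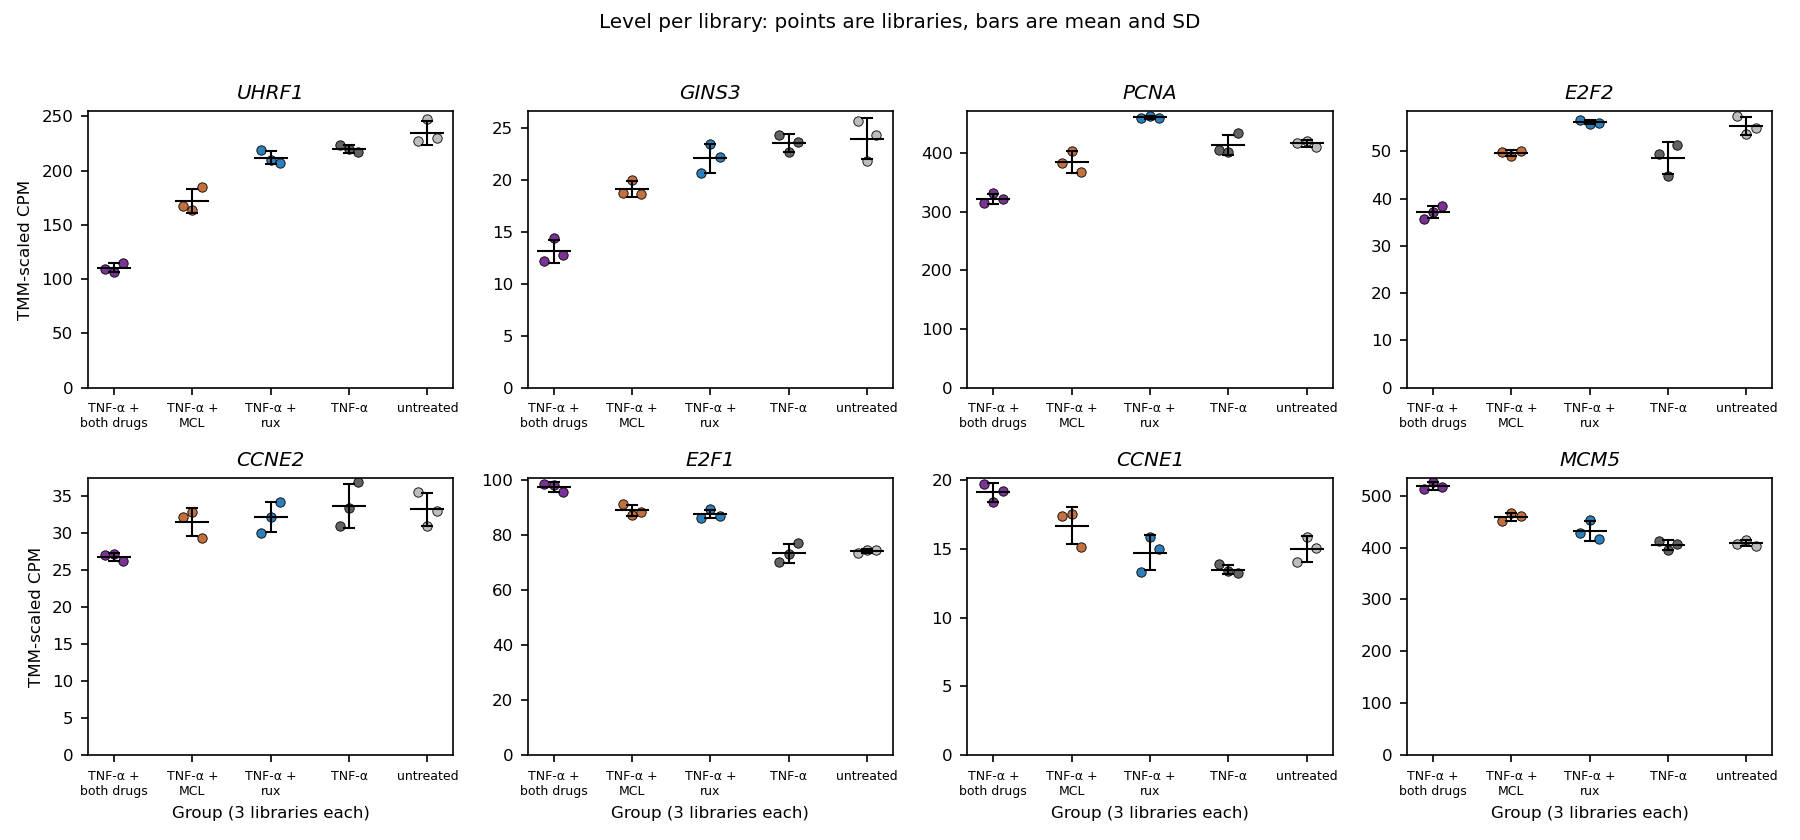
Points give the TMM-scaled CPM of each library for 8 genes by group, with the mean and SD of 3 libraries. With both drugs UHRF1, GINS3, PCNA, E2F2 and CCNE2 have their lowest points and E2F1, CCNE1 and MCM5 their highest.

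Set against the share of genes with an E2F match in the promoter, 13 of the 20 genes with a promoter among those that fell with both drugs had one, 4 of the 8 among those that rose, and 3 of the 9 among those that did not pass. Both E2F1, which rose, and E2F2, which fell, had matches in the windows shown. These counts describe the 43 genes and were not tested.

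Adding MCL to ruxolitinib lowered 21 of the 43 genes, raised 5 and left 17 that did not pass, where 26.8% of all genes were lower and 24.8% higher. Adding ruxolitinib to MCL lowered 19, raised 5 and left 19, where 22% of all genes were lower and 19.6% higher. The comparisons share the libraries with both drugs, so their values are given side by side and not as a match. UHRF1 was at -0.94 ± 0.04 (adjusted p = 6.76e-29) against ruxolitinib and at -0.64 ± 0.04 (adjusted p = 2.55e-20) against MCL. Against ruxolitinib GINS3 was at -0.75, E2F2 at -0.60, PCNA at -0.52 and FEN1 at -0.40, and against MCL GINS3 was at -0.54, E2F2 at -0.42, PCNA at -0.25 and FEN1 at -0.31. By role, the clamp and its loader had 3 of 5 genes lower in each comparison and none higher, nucleotide supply had 4 of 4 lower against ruxolitinib and 2 of 4 against MCL, and of the 7 polymerase and primase genes POLD1 alone passed, at -0.26 and -0.12. The POLD1 call against MCL ended with library totals (adjusted p = 0.121), with DESeq2 (0.0521), without MCL replicate 3 (0.152) and without replicate 3 of both drugs (0.0788). ORC1, which did not pass against TNF-α alone, was at -0.24 (adjusted p = 1.76e-05) against ruxolitinib and -0.18 (adjusted p = 0.00233) against MCL. MCM5 was at 0.26 (adjusted p = 3.95e-10) and 0.18 (adjusted p = 9.24e-06), and ORC6 at 0.24 in both. CCNE1 was at 0.38 (adjusted p = 0.000554) against ruxolitinib and at 0.19 (adjusted p = 0.0855) against MCL. E2F1 was at 0.15 (adjusted p = 0.00255) and 0.13 (adjusted p = 0.0137), and its call against MCL ended without MCL replicate 2 (adjusted p = 0.059). With library totals, 10 genes rather than 5 were higher against ruxolitinib.

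The non-additive effect, the log2 effect of MCL with ruxolitinib present minus that without it, was below 0 past the test for 19 of the 43 genes and above 0 for 0. Over all genes, 12.8% passed below 0 and 12.2% above, and the median of the 43 genes was -0.15, beside 0.01 over all genes. By edgeR's quasi-likelihood test ORC6 and POLE2 were above 0 at an unadjusted p under 0.05, a count of 2, DESeq2 called 0, and ORC6 passed with library totals. The effects of MCL with and without ruxolitinib come from 4 groups and share no library. E2F2 changed most: MCL was at -0.60 with ruxolitinib and 0.03 without it, a difference of -0.63 ± 0.08 (adjusted p = 6.6e-09). For UHRF1 MCL was at -0.94 with ruxolitinib and -0.35 without it, for PCNA at -0.52 and -0.10, and for RRM2 at -0.33 and -0.05. ORC1 changed sign, with MCL at -0.24 in the presence of ruxolitinib and 0.16 in its absence, a difference of -0.40 ± 0.07 (adjusted p = 4.28e-06). The ORC1 rise with MCL in the absence of ruxolitinib did not pass without TNF-α replicate 1 (adjusted p = 0.0974). Among the genes that rose with both drugs, E2F1 was at -0.13, MCM5 at 0.08 and CCNE1 at 0.07, and none of these differences passed. GINS2, which also rose, passed below 0 at -0.19 ± 0.07 (adjusted p = 0.049), a call that ended with library totals or DESeq2. CHAF1B, another gene that rose, did not pass here. In the fit of the compared groups alone it passed below 0, at -0.17 (adjusted p = 0.0471). It also did so without untreated replicates 1 or 2, TNF-α replicate 1 or ruxolitinib replicates 2 or 3 (adjusted p = 0.038 to 0.0491).

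**Figure D3:**
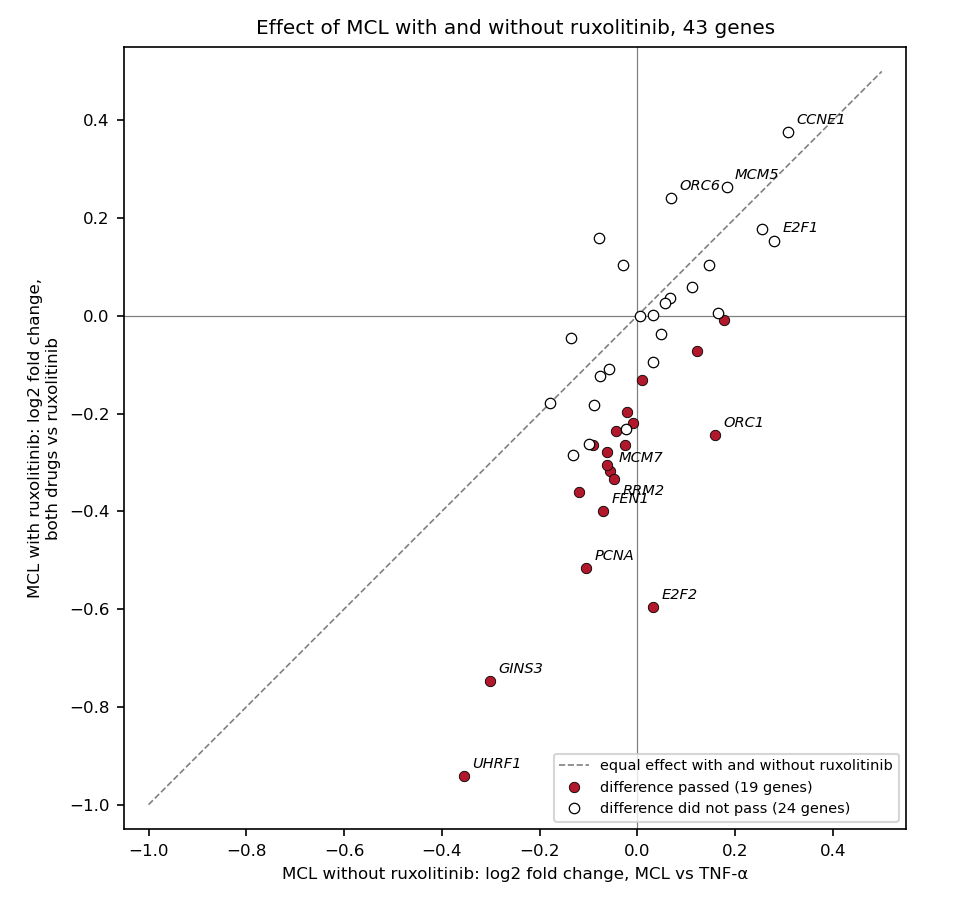
Each point is 1 of the 43 genes, with the log2 effect of MCL without ruxolitinib on the x axis and with ruxolitinib on the y axis. The 19 filled points, whose difference passed, lie below the dashed line of equal effects.

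MCL alone raised 10 of the 43 genes (23.3%), lowered 5 (11.6%) and left 28 that did not pass, where 10.9% of all genes were higher and 15.1% lower. UHRF1 and GINS3 had the largest falls here too, at -0.35 ± 0.04 (adjusted p = 7.85e-11) and -0.30 ± 0.09 (adjusted p = 0.00532). E2F1 rose by 0.28 ± 0.05 (adjusted p = 1.57e-06), MCM5 by 0.18 ± 0.03 (adjusted p = 1.09e-05) and CHAF1B by 0.16 ± 0.05 (adjusted p = 0.00401). TYMS had 108, 116 and 108 CPM with MCL, against 117, 129.9 and 128 with TNF-α alone, and was 0.18 lower. That call ended without TNF-α replicates 2 or 3 or MCL replicates 1 or 3 (adjusted p = 0.0795 to 0.098). CCNE1 was 0.31 and POLA2 0.26 higher, with calls that ended without MCL replicate 1 for CCNE1 (0.064), MCL replicate 2 for CCNE1 (0.064) and POLA2 (0.058), and TNF-α replicate 3 for POLA2 (0.159). Only the calls of MCM5, GINS3, UHRF1, CHAF1B and E2F1 held in every alternative tried, and with library totals 53.7% rather than 41.8% of all genes that passed were higher.

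Ruxolitinib alone raised 8 of the 43 genes (18.6%) and lowered 0, with 35 that did not pass, where 5.15% of all genes were higher and 10.6% lower. By edgeR's quasi-likelihood test 2 genes, POLE and POLE2, were lower at an unadjusted p under 0.05, and DESeq2 also called 0 lower. E2F1 rose by 0.26 ± 0.05 (adjusted p = 1.73e-05), ORC1 by 0.23 ± 0.05 (adjusted p = 0.000317), CDT1 by 0.16 ± 0.04 (adjusted p = 0.00296) and PCNA by 0.16 ± 0.03 (adjusted p = 0.000443). ORC1 had 80, 82.8 and 78.4 CPM with ruxolitinib, against 64.7, 69.2 and 71.9 with TNF-α alone, and the groups did not overlap. E2F2 was 0.21 higher (adjusted p = 0.0051), but not without TNF-α replicate 2 (0.082), and POLD3, MCM5 and CHAF1B lost their calls without 3 or more single libraries. The median of the 43 genes was 0.07, beside -0.01 over all genes. With library totals 15 genes rather than 8 were higher, and 45.4% rather than 32.8% of all genes that passed were higher.

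Compared directly, MCL gave lower levels than ruxolitinib for 15 of the 43 genes and a higher level for 1, MCM5, where 13.1% of all genes were lower and 14.3% higher. UHRF1 was at -0.30 ± 0.04 (adjusted p = 9.27e-09), PCNA at -0.26 ± 0.03 (adjusted p = 5.89e-09), LIG1 at -0.18 ± 0.04 (adjusted p = 0.000105) and POLD3 at -0.23 ± 0.06 (adjusted p = 0.00211). E2F1 was at 0.02 (adjusted p = 0.755), with 89.1 ± 2.05 CPM with MCL and 87.7 ± 1.57 with ruxolitinib (SD, n = 3 each). The MCM5 call, at 0.09, ended without MCL replicates 2 or 3 or ruxolitinib replicates 1 or 3 (adjusted p = 0.079 to 0.242).

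TNF-α alone lowered 6 of the 43 genes and raised 2 against untreated cells, with 35 that did not pass, where 12.5% of all genes were lower and 14.1% higher. The set had 6 of 43 genes lower with TMM, 10 of 43 (23.3%) with DESeq2 size factors (14.4% of all genes) and 14 of 43 (32.6%) with library totals (16.7% of all genes), so its place against the background depended on the scaling. RFC2 had 74.5, 78.4 and 81 CPM with TNF-α, against 67.3, 59.8 and 67.1 in untreated cells, and rose by 0.27 ± 0.05 (adjusted p = 1.54e-05). POLE had 445 ± 8.61 CPM with TNF-α and 486 ± 4.8 in untreated cells (SD, n = 3 each), and fell by 0.13 ± 0.04 (adjusted p = 0.00428). RFC3 had 70.3, 78.6 and 78.1 CPM with TNF-α, against 84.5, 83.3 and 85.7 in untreated cells, a fall of 0.16 that did not pass without TNF-α replicate 1 (adjusted p = 0.12). GINS4 had 56.5, 57.9 and 52.4 CPM with TNF-α, against 48.5, 50.2 and 50 in untreated cells. E2F2 was 0.19 and CDC6 0.13 lower, with calls that ended without TNF-α replicate 2 for E2F2 (0.105) and without untreated replicate 3 or TNF-α replicate 3 for CDC6 (0.068 and 0.059), and GINS4, at 0.17, lost its call in 9 alternatives. With library totals 42.4% rather than 53.0% of all genes that passed were higher.

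**Figure D4:**
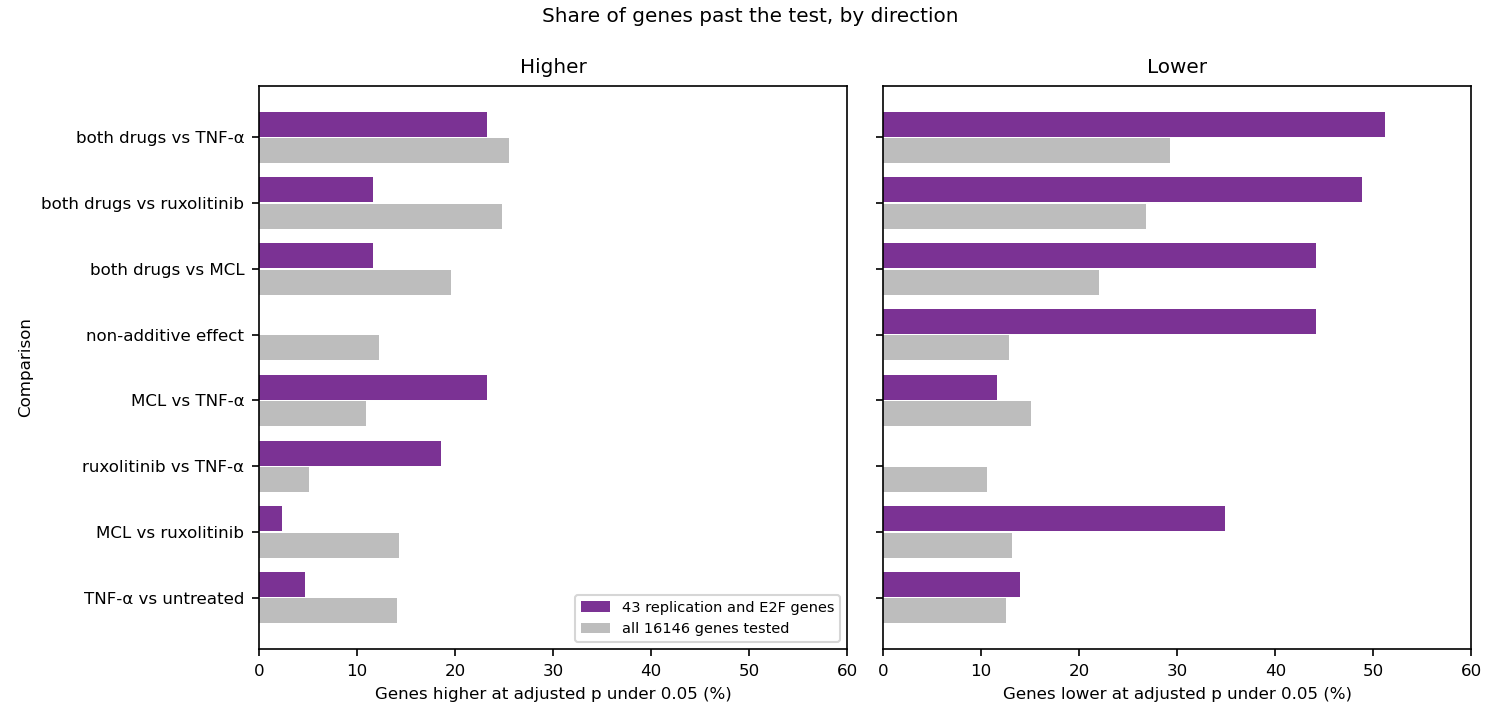
Bars give the percentage of the 43 genes and of all 16146 genes tested that were higher (left) or lower (right) in each contrast. On the lower side the longest bars of the set are those of both drugs against TNF-α (51.2% against 29.3%) and against ruxolitinib (48.8% against 26.8%). On the higher side the set exceeds all genes for MCL against TNF-α and for ruxolitinib against TNF-α. When single libraries were left out, the number of the 43 genes higher ran from 5 to 10 with MCL and from 5 to 14 with ruxolitinib.

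In none of the 7 comparisons of 2 groups did MCM6, MCM10, RFC5, POLA1, POLE2, PRIM1 or RPA1 pass, and the other genes passed in 1 to 6 of them. All of these but RFC5 passed somewhere under another setting. With library totals MCM6 (adjusted p = 0.0224) and MCM10 (0.00889) were lower with TNF-α against untreated cells, POLA1 (0.00701), RPA1 (0.0038) and MCM10 (0.0111) were higher with both drugs against TNF-α alone, and POLE2 (0.0131) was higher with both drugs against ruxolitinib. With no filter, PRIM1 was lower with both drugs against TNF-α alone (0.03), ruxolitinib (0.0116) and MCL (0.0395).

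Genes near the set in the cell cycle were listed by pathway and counted in the same test. With both drugs against TNF-α alone, 12 of 39 other replication genes were lower and 10 higher, near the shares over all genes of 29.3% and 25.5%. The 4 with the smallest p were all lower: the histone chaperone subunit SUPT16H at -0.48, the MCM-binding protein gene MCMBP at -0.53, the clamp loader gene DSCC1 at -0.69 and the origin gene ORC2 at -0.54. Of 27 other genes of nucleotide synthesis, 14 were lower and 4 higher, with the pyrimidine gene UMPS at -0.74 and PRPS2 at -0.54 on one side, and the salvage kinase gene DCK at 0.96 and the p53-inducible reductase subunit RRM2B at 0.89 on the other. Of 29 repair and chromatin genes under E2F control, 7 were lower and 11 higher, such as the heterochromatin gene CBX5 at -0.60, the histone chaperone ASF1A at 1.40, BRCA2 at 0.65 and HMGB2 at 0.45. Of 19 genes of replication stress and the DNA damage response, 6 were lower and 11 higher, led by the pro-apoptotic gene PMAIP1 at 2.07 and the stress gene SESN2 at 2.03, with the antiproliferative gene BTG2 at -1.17. The medians of these lists were -0.03, -0.09, 0.05 and 0.26, beside -0.03 over all genes.

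Of 25 genes of G2 and mitosis, 7 were higher and 6 lower with both drugs against TNF-α alone, where 25.5% of all genes were higher and 29.3% lower. They included the cyclin B2 gene CCNB2 at 0.24 and the mitotic regulator FOXM1 at 0.21, against the proliferation marker MKI67 at -0.35 and CCNF at -0.36. Against MCL, 14 of the 25 were higher with both drugs and 0 lower by edgeR's quasi-likelihood test (2 lower at an unadjusted p under 0.05), and the median was 0.11. Over all genes 19.6% were higher and 22% lower there, with a median of -0.01. With MCL against ruxolitinib, 16 were lower and 0 higher by the same edgeR test (1 at an unadjusted p under 0.05), with a median of -0.17. Over all genes 13.1% were lower and 14.3% higher in that comparison, with a median of -0.01. Against TNF-α alone, MCL lowered 10 and raised 1, where 15.1% of all genes were lower and 10.9% higher. Ruxolitinib raised 9 and lowered 0 (1 at an unadjusted p under 0.05), where 5.15% of all genes were higher and 10.6% lower.

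Upstream of E2F, D-type cyclins bring the kinases that inactivate RB. Of 31 genes of RB and E2F control, 15 were lower and 8 higher with both drugs against TNF-α alone, with a median of -0.09. Over all genes 29.3% were lower and 25.5% higher, with a median of -0.03, so the share higher was near the background. CCND1, which encodes cyclin D1, had 22.8 ± 0.969 CPM with both drugs, 106 ± 2.05 with MCL, 75.8 ± 0.293 with ruxolitinib, 175 ± 2.93 with TNF-α alone and 106 ± 1.21 in untreated cells (SD, n = 3 each), a log2 change of -2.94 with both drugs against TNF-α. CCND2 was at -1.32, CCND3 at -0.73 and the inhibitor gene CDKN2D at -1.40 in that comparison. MYC, a growth factor-driven activator of the cell cycle, had 133 ± 6.52 CPM with both drugs, 314 ± 13.7 with MCL, 226 ± 5.65 with ruxolitinib, 327 ± 3.48 with TNF-α alone and 465 ± 7.71 in untreated cells. CDKN1A, the inhibitor p21, had 333 ± 1.04 CPM with both drugs, 235 ± 4.41 with MCL, 270.2 ± 10.1 with ruxolitinib, 283 ± 6.36 with TNF-α alone and 289 ± 6.85 in untreated cells, and was 0.23 higher with both drugs than with TNF-α alone (adjusted p = 3.12e-08). Its non-additive effect was 0.57 (adjusted p = 5.82e-15) and that of MYC -0.71 (adjusted p = 1.05e-17).

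The labelled cell line was checked against markers. Of 10 haematopoietic markers 9 were tested, with CD38 at a mean of 0.15 CPM, and of 10 erythroid and megakaryocytic markers 6, with KLF1, HBG1 and ANK1 near 0 and HBG2 at 0. Of 10 markers of epithelium and fibroblasts, KRT8 and KRT18 were tested, and EPCAM, KRT19, CDH1 and LUM were at 0. Of 10 markers of T, B and endothelial cells 8 were tested, with MS4A1 at 0. Beside the changes of the replication genes with both drugs, the lineage markers also moved: the summed haematopoietic level was 1835 to 1891 CPM with both drugs against 2539 to 2593 with TNF-α alone, and the erythroid and megakaryocytic level was 685 to 739.8 against 1254 to 1277. All 6 tested erythroid and megakaryocytic markers were lower, with a median of -0.64. The summed level of the epithelial and fibroblast markers was 101 to 108 CPM against 125 to 136, and that of the T, B and endothelial markers 379 to 393 against 434 to 445. The part of these markers in the result was not tested.

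Counting may limit some members. The gene spans of 18 members overlap another tested gene, 13 of them on the opposite strand, and the sources used here do not say whether counting used strand. CCNE2 overlaps INTS8 by 1977 bases and NDUFAF6 by 912, TYMS overlaps ENOSF1 by 3255, and FEN1 overlaps FADS2 on its own strand by 4265. These are overlaps of whole gene spans, introns included. Overlap of exons was not examined, so how far the levels of these genes are uncertain is not known. Over all libraries FADS2 had a mean of 713 CPM against 193 for FEN1, and ENOSF1 125 against 115 for TYMS. INTS8 had 76.9 and NDUFAF6 38.4 against 31.5 for CCNE2. Pseudogenes named for 7 members are in the table, and RRM2P3, at up to 129 counts in a library, was the 1 with enough counts to test.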

How the data were processed

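RNA-seq of 15 UKE1 libraries was analysed. The deposited table held raw counts per gene, whole numbers with no normalization, as the authors made them. Per the submitters' processing notes, HISAT2 2.0.5, featureCounts 1.5.0-p3 and DESeq2 1.16.1 were used, with hg38 and mm10 listed as builds. The sources used here do not say whether strand was used or how reads with several matches were counted. The control columns were matched to untreated cells, the 1 group with no agent. The table's gene coordinates matched GENCODE 29 for 58735 of 58735 genes, and its gene length column gave the exon length, the other deposited measure, used for levels per kilobase.

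Genes were filtered with filterByExpr at a minimum count of 10 (16146 kept, 42589 removed, at least 99.85% of counts kept). edgeR 4.0.16 in R 4.3.3 fitted 1 coefficient per group over 15 libraries with TMM factors and a robust quasi-likelihood F-test, with 10 residual degrees of freedom, and adjusted p over all tested genes. The standard error is the log2 fold change over the square root of F. The common biological coefficient of variation was 0.04, so small changes can pass. Pairs of libraries within a group differed by more than sampling noise. The pipeline was tested on simulated counts. The 43 genes and the other lists were chosen with earlier results of these data known. Every member is counted. Values of all libraries are printed for passing members in the top 3 or bottom 3 by log2 fold change of each comparison against TNF-α or untreated cells, and for MCM2, CDC6, CDC45, PCNA, POLA1, FEN1, RRM2, UHRF1, E2F1 and CCNE1. Of each other list, up to 4 passing genes with the smallest p are named, and MYC, CCND1 and CDKN1A are always reported.

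Alternatives were DESeq2 size factors, library totals, no filter, DESeq2 1.42.0, a fit of the compared groups alone, a replicate block and leaving out each library. Python 3.11.15 searched RefSeq promoters for motifs.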

Additional observations from a re-analysis of the deposited data

Results flagged for a closer look

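For 19 genes the log2 effect of MCL differed with and without ruxolitinib, by edgeR's quasi-likelihood test of the difference. Every one of the 19 differences was below 0, and among all genes 12.8% passed below 0 and 12.2% above. In licensing they were ORC1 (-0.40), MCM2 (-0.21), MCM3 (-0.17), MCM4 (-0.14) and MCM7 (-0.26). In helicase activation they were GINS2 (-0.19) and GINS3 (-0.45), and in the clamp and its loader PCNA (-0.41), RFC2 (-0.24) and RFC3 (-0.24). The polymerase gene POLD1 was at -0.17, the strand genes RPA2 and FEN1 at -0.19 and -0.33, and the nucleotide genes RRM1, RRM2 and TK1 at -0.22, -0.29 and -0.19. UHRF1 was at -0.59, CHAF1A at -0.24 and E2F2 at -0.63.

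The MCL effect passed in opposite directions with and without ruxolitinib for ORC1 alone among the 19, and its call without ruxolitinib ended when TNF-α replicate 1 was left out (adjusted p = 0.0974). For RPA2 it was -0.07 with ruxolitinib and 0.12 without, and for GINS2 -0.01 and 0.18. The calls of MCM4, GINS2, POLD1, RPA2 and TK1 each ended when at least 1 library was left out, with adjusted p up to 0.189 for GINS2.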

How the results depend on the processing

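No call of the 43 genes reversed in any alternative. Of the 148 calls, 144 held with DESeq2 size factors, 132 with library totals, 138 with no filter, 138 with DESeq2, 146 when only the compared groups were fitted and 148 with the replicate block, and 865 of 1002 held when a library was left out. Calls held in every alternative for 22 of 32 genes with both drugs against TNF-α, 24 of 26 against ruxolitinib, 16 of 24 against MCL, 14 of 19 non-additive effects, 5 of 15 with MCL, 4 of 8 with ruxolitinib, 6 of 16 with MCL against ruxolitinib and 2 of 8 with TNF-α. The cause of the changes below was not tested.

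With TNF-α against untreated cells, 2 genes were higher, or 1 with size factors, library totals, no filter or DESeq2 and 4 with only the compared groups, and 6 were lower, or 10 with size factors, 14 with library totals and 10 with no filter. With ruxolitinib, 8 were higher, or 13 with size factors and 15 with library totals. Against ruxolitinib, 10 rather than 5 were higher with both drugs under library totals. With MCL against ruxolitinib, 0 rather than 1 were higher in the fit of the compared groups. The non-additive effect was above 0 for 1 gene, ORC6, with library totals or the replicate block. The block moved no other count of calls by over 1.5 times. Same-numbered libraries of different groups correlated between -0.06 and 0.07 in their deviations from the group means, with a median of 0.01. Differently numbered libraries correlated between -0.11 and 0.09, with a median of -0.01. Such values cannot exclude a weak pairing by replicate number.

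Leaving out single libraries gave 1 to 2 higher and 3 to 11 lower for TNF-α, 5 to 10 and 3 to 5 for MCL, 5 to 14 and 0 to 2 for ruxolitinib, 8 to 10 and 18 to 22 for both drugs against TNF-α, 4 to 6 and 21 to 22 against ruxolitinib, 3 to 5 and 16 to 19 against MCL, 0 to 2 and 9 to 18 for MCL against ruxolitinib, and 0 to 2 and 16 to 20 for the non-additive effect. The smallest call with both drugs against TNF-α, LIG1 at -0.09, also ended with size factors, library totals, no filter, DESeq2 or the compared groups alone.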
